A study of Homo sapiens with 30 samples.

Results

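The sites described here are the iCLIP peaks of LARP6 that lay inside a 5' untranslated region (5'UTR) but away from the capped end of the mRNA. A peak was a member when its centre fell in the 5'UTR of the Ensembl canonical transcript of a protein-coding gene, on the same strand, and more than 50 nt from the 5' end counted along the spliced transcript. The rule used position only and no measured value. It found 1134 members among the 47384 peaks of 3 lists, 401 of 14334 peaks for full-length LARP6 (FL), 467 of 17180 for ΔNTR and 266 of 15870 for ΔCTR. They lay in 644 genes, of which 309 held an FL member, 361 a ΔNTR member and 223 a ΔCTR member. Peaks of this region that shared at least 1 nt were merged across the lists into 896 sites.

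The study asked which regions of LARP6 are needed to bind RNA in cells. iCLIP crosslinks protein to RNA with ultraviolet light, purifies the protein and sequences the attached RNA fragments. U-87 MG, an established human glioblastoma line, was transduced with a lentiviral, doxycycline-inducible construct for LARP6 with an N-terminal myc tag, and each variant was 1 puromycin-selected line that kept its own LARP6 gene. The variants were FL, ΔNTR (deltaNTR in the labels, without the disordered N-terminal region), ΔLa-module (deltaLa-module, without the folded RNA-binding module), ΔNTD (deltaNTD, without both) and ΔCTR (deltaCTR, without the C-terminal region), with parental cells that carried no tagged LARP6 as the negative control. All 6 lines received 60 ng/mL doxycycline for 24 h. There were 3 iCLIP replicates per line, 18 in all, which the authors merged into 1 list per variant before they removed the peaks called in parental cells. Each peak carries a score, a whole number of at least 3 that the authors summed over the replicates without scaling to depth. The lists hold no replicate values and the iCLIP depth is unknown here, so no difference could be set against replicate spread. Intervals of 95% are given instead, and they cover counting error only.

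The 5'UTR is the stretch that the scanning ribosome reads from the cap to the start codon. Hairpins and short upstream open reading frames, which begin at an ATG ahead of the main start codon, can slow or divert that scanning. LARP6 is best known for binding a hairpin around the start codon of type I collagen mRNAs, a structure conserved between COL1A1 and COL1A2. A 5'UTR peak far from the annotated 5' end therefore marks contact along the annotated leader. The transcription starts used in these cells were not measured here, so the distance from the real cap can differ.

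Input RNA came as 12 libraries, per line 1 of 150 nt paired-end reads (PE150, 25027075 to 28692476 counts in genes) and 1 of 50 nt single-end reads (SE50, 6181270 to 10307756). Levels below are PE150 counts in CPM, scaled to library totals adjusted by TMM factors. The defining markers of this mesenchymal glioma line were present, with VIM at 7039 to 8004 CPM and CD44 at 2083 to 2336. The genes CDKN2A, CDKN2B and MTAP, known to be deleted in U-87 MG, were at 0 in every PE150 library.

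The 15 sites with the highest score summed over the 3 lists are shown first, since they carry the largest values below. Each run is 30 nt of GRCh38 around the centre of the strongest peak, 5′ to 3′ on the mRNA strand, and every ATG is in capitals. The second COL1A1 and COL1A2 runs each hold an upstream ATG followed by the main start codon.
CCNI site 1 (chr4:77075710-77075739, minus strand): gcctcaggccgggggtcatcATGgaactaa
FTH1 (chr11:61967458-61967487, minus strand): ccgccgccgctccagcgccgcgcagccacc
COL1A2 site 1 (chr7:94394967-94394996, plus strand): tgatacctccgccggtgacccaggggctct
COL1A1 site 1 (chr17:50201547-50201576, minus strand): acgcATGagcggacgctaaccccctcccca
CAMK2N1 site 1 (chr1:20485565-20485594, minus strand): agcgcagcgcagccgcgggcgctctccggg
CAMK2N1 site 2 (chr1:20485619-20485648, minus strand): agtcctgctcgcctctggcggagcagcagc
CDK5R2 (chr2:218959718-218959747, plus strand): ggccggggctaggccccccaccgccgggtc
HNRNPA0 (chr5:137754270-137754299, minus strand): ttgtcttccagtctcctcggctcgcccttt
COL1A1 site 2 (chr17:50201508-50201537, minus strand): agtctacATGtctagggtctagacATGttc
COL1A2 site 2 (chr7:94395009-94395038, plus strand): gtctgcATGtctaagtgctagacATGctca
CCDC85B (chr11:65890712-65890741, plus strand): tggcgccgggcccgacgtggggctcctggg
CCNI site 2 (chr4:77075746-77075775, minus strand): gggagccccctcccaacccgggctcgagcg
VIM (chr10:17229333-17229362, plus strand): acccacacccaccgcgccctcgttcgcctc
SPTBN1 (chr2:54456365-54456394, plus strand): cgcagccctgcgcagcagcgcccactggtc
SSX2IP (chr1:84671279-84671308, minus strand): gagATGcctacatagaagagtgacagcagc
The next 5 sites are shown because they were among those whose score differed most between lists.
PITPNM2 (chr12:123034625-123034654, minus strand): aaggaaccttgcctagaagtcccaacttgc
TUBA1B (chr12:49131317-49131346, minus strand): cccggtgtctgctcctgtcgccttcgcctc
EIF4G2 (chr11:10808775-10808804, minus strand): tttttttgttttccgttcccctttcccctc
DCBLD2 (chr3:98901565-98901594, minus strand): ccgtcctccgcggctcgaggactccgcttc
STAM2 (chr2:152175664-152175693, minus strand): gttgctgagtgtcagctagacagcagcgac
The EIF4G2 run is almost wholly C and T, and the SSX2IP, CCNI site 1 and COL1A1 site 1 runs each hold an upstream ATG.

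CCNI, which encodes cyclin I, and FTH1, the ferritin heavy chain that stores iron, held the 2 highest sites, each with a summed score of 357. The first CCNI site, centred 265 nt from the 5' end of a 561 nt leader, had a score of 190 in FL against 68 in ΔNTR and 99 in ΔCTR. A second CCNI site 229 nt from the 5' end had 38, 21 and 11. Both CCNI sites lay inside a reading frame opened by one of the 5 upstream ATGs of this leader, and both were highest in FL. Member peaks made up 89.3% (FL), 71.7% (ΔNTR) and 82.5% (ΔCTR) of the score of the gene.

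The FTH1 site scored 135, 114 and 108 in FL, ΔNTR and ΔCTR, so the 3 lists were close. Ferritin leaders carry an iron-responsive element, a hairpin with a CAGUG loop bound by iron regulatory proteins. The letters CAGTG occurred once in the FTH1 leader, starting at nt 45 of 209, whereas the highest peak was centred at nt 163 (FL), 164 (ΔNTR) or 153 (ΔCTR). The weaker FL and ΔNTR members of this leader were centred nearer to these letters. The nearest were a ΔNTR peak of score 11 at nt 53 and an FL peak of score 4 at nt 73. The weaker ΔCTR member, of score 4, was centred farther away, at nt 181. In ΔCTR a peak of score 21 with its centre nearer the cap also touched this site. FTL, the light chain, held no FL member, ΔNTR members of 3 and 6 and a ΔCTR member of 6, centred at nt 93 to 126, with its CAGTG at nt 39.

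The type I collagen leaders held a pair of sites each, at matching places. The stronger site was centred 48 nt before the start codon in COL1A1 and 50 nt before it in COL1A2, and the weaker one 9 and 8 nt before it. The stronger COL1A1 site scored 92, 39 and 111 (FL, ΔNTR, ΔCTR), and the weaker 43, 12 and 33. For COL1A2 the stronger site scored 98, 46 and 107, and the weaker 35, 25 and 27. Another COL1A2 site, 77 nt before the start codon, had 5, 0 and 4. Strong FL peaks scored lower in ΔNTR across the list. Where 1 FL peak of score 10 or more met 1 ΔNTR peak, the summed ΔNTR score was 0.547 of the FL score. At members it was 0.588. The same ratios for ΔCTR were 1.03 and 0.688. These ratios are not scaled to the list total, and the FL score chose the pairs. As log2 change of the share of the list total, the stronger sites differed from FL by -1.07 and -0.93 in ΔNTR and by 0.06 and -0.08 in ΔCTR, and the weaker sites by -1.61 and -0.32 in ΔNTR and by -0.58 and -0.57 in ΔCTR (COL1A1 first). After division by the input level, which for COL1A1 was 729.9 CPM in FL and 995.1 in ΔCTR, the stronger COL1A1 site differed by -0.86 in ΔNTR and -0.39 in ΔCTR.

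Aligned without gaps at the start codon, the last 30 nt of the COL1A1 and COL1A2 leaders were identical at 25 positions. In the 30 nt before those, where the stronger peaks were centred, only 9 of 30 positions were identical. The higher scores thus lay next to the stretch that the mRNAs share, and the lower ones within it. Each leader had an upstream ATG exactly 17 nt before the start codon, visible in the printed runs, and neither was in frame with the coding sequence. A further ATG stood 59 nt before the start codon in COL1A1 and 83 nt before it in COL1A2.

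The other sites of the top 15 belonged to mRNAs of varied function. CAMK2N1, an inhibitor of the kinase CaMKII, held 2 of them in a leader of 831 nt, with scores of 104, 44 and 65 at 200 nt before the start codon and 71, 27 and 28 at 254 nt before it. HNRNPA0, an hnRNP protein, scored 49, 32 and 9. CCDC85B, a coiled-coil protein, scored 44, 21 and 14. All of these were highest in FL.

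VIM, the intermediate filament protein vimentin, scored 30 in FL and 27 in ΔNTR and had no ΔCTR peak at its site in exon 2, while the ΔLa-module and ΔNTD lists each had a peak of 3 there. SPTBN1, a beta-spectrin of the membrane skeleton, scored 24, 21 and 11. SSX2IP, a protein of the centriolar satellites, scored 23, 9 and 21. CDK5R2, an activator of the kinase CDK5, went the other way from most, with 27 in FL against 14 in ΔNTR and 62 in ΔCTR.

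**Figure D1:**
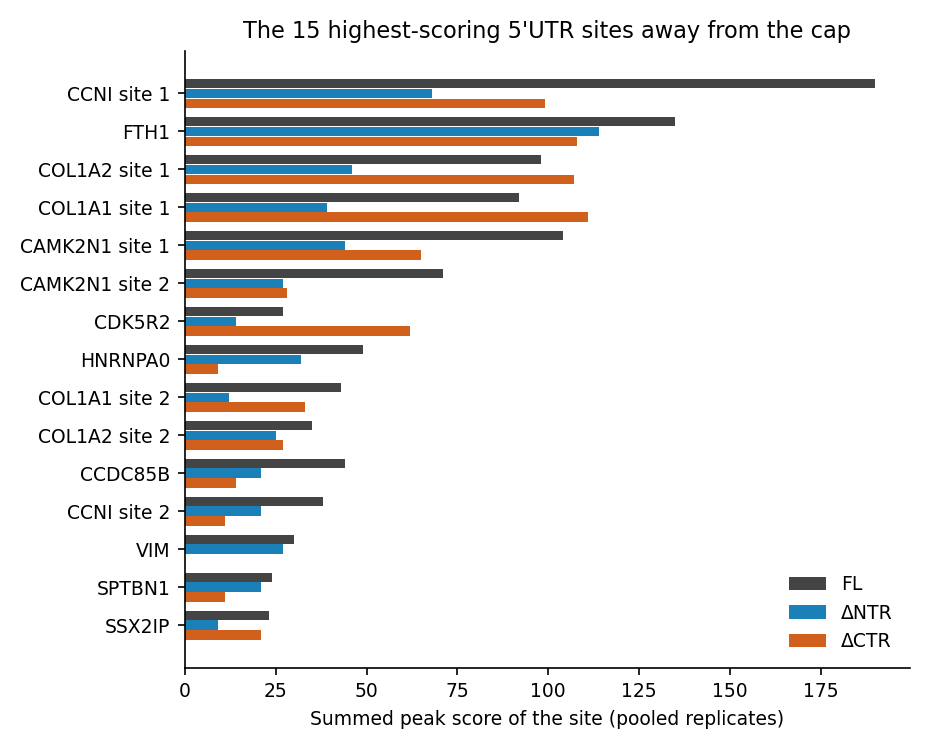
Summed peak score (pooled replicates, no error available) of the 15 highest-scoring 5'UTR sites away from the cap, one bar per list. FL is the highest bar at most sites; CDK5R2 (27 in FL, 62 in ΔCTR) and the stronger collagen sites are highest in ΔCTR, and VIM has no ΔCTR bar.

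High scores occurred at very different input levels. CDK5R2 had 0.597 CPM in parental cells, 0.748 (FL), 1.80 (ΔNTR) and 1.07 (ΔCTR) in the variant lines, and its only peak in each list was this site. CAMK2N1 had 100.3 CPM in FL and CCNI 344.5, against 7039 for VIM, 2913 for FTH1, 729.9 for COL1A1 and 680.6 for COL1A2. CAMK2N1 and CCNI thus scored above VIM from far less mRNA, and CDK5R2 from almost none.

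Most members were weak. The lowest score of 3 was held by 58.4% of FL members, 55.7% of ΔNTR members and 57.9% of ΔCTR members, and the 10 highest peaks made up 30.3%, 16.9% and 36.7% of the member score. Scores of 10 or more numbered 43, 33 and 29. Members just inside the distance limit, 51 to 60 nt from the 5' end, numbered 35, 33 and 25 with median scores of 4 in each list, and peaks just outside it, at 41 to 50 nt, numbered 33, 35 and 20 with medians of 3, 3 and 4.

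Deleting the C-terminal region went with fewer members. The ΔCTR list held 266 (235 to 300) against 401 (363 to 442) for FL, a ratio of 0.663 (0.566 to 0.776). Over all peaks the ratio was 1.11 (1.08 to 1.13), in the coding sequence (CDS) 1.13 (1.09 to 1.18) and in the 3'UTR 1.18 (1.14 to 1.22). The interval of the members overlapped none of these. Peaks within 50 nt of the 5' end were also fewer, 150 against 203, a ratio of 0.739 (0.594 to 0.917), so the lower number was shared by both ends of the leader. Members were 2.80% (2.54 to 3.08) of the FL list, 2.72% (2.49 to 2.97) of the ΔNTR list and 1.68% (1.49 to 1.89) of the ΔCTR list.

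For ΔNTR the ratio of members to FL was 1.16 (1.02 to 1.33), within the counting error of that of all peaks, 1.20 (1.17 to 1.23). Scores summed over the members came to 2694 (FL), 2442 (ΔNTR) and 1807 (ΔCTR). As a share of the list total, and relative to FL, it was 1.00 in ΔNTR and 0.581 in ΔCTR. In the CDS this relative share was 1.06 and 1.01, and in the 3'UTR 0.992 and 1.07. The lower share in ΔCTR thus set the 5'UTR apart from both other regions of the mRNA.

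**Figure D2:**
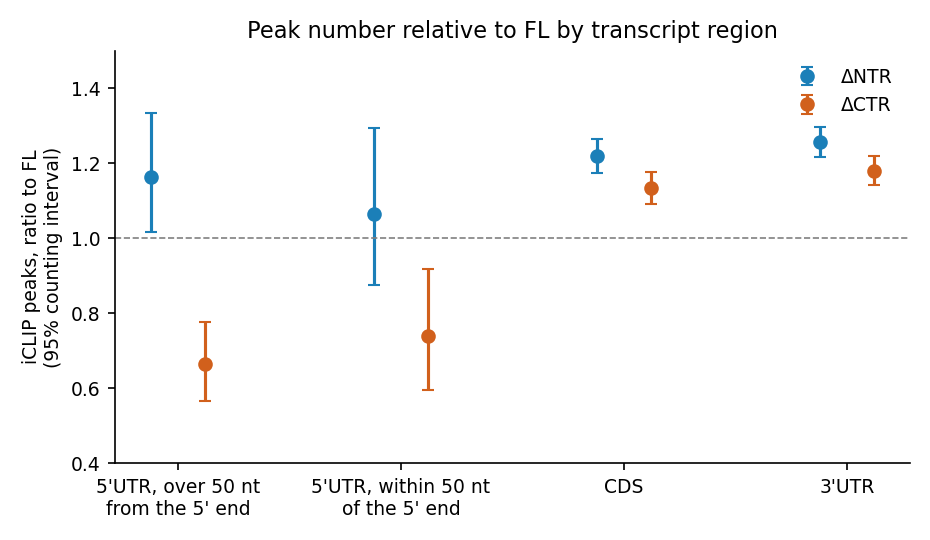
Number of iCLIP peaks of ΔNTR and ΔCTR divided by that of FL in 4 transcript regions, with 95% counting intervals and a dashed line at 1. The ΔCTR points of both 5'UTR classes, 0.663 and 0.739, lie below 1, and those of CDS and 3'UTR lie above it, whereas all ΔNTR points lie at or above 1.

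The mRNAs that held members did not have fewer CDS or 3'UTR peaks in ΔCTR than in FL. In the 644 host genes, CDS peaks numbered 1459 in FL and 1646 in ΔCTR, a ratio of 1.13 (1.05 to 1.21), and 3'UTR peaks 1347 and 1435, a ratio of 1.07 (0.988 to 1.15). The summed CDS score of these genes was 11602 in FL and 14031 in ΔCTR, a relative share of the list total of 1.05. Within 50 nt of the 5' end the same genes had 69 peaks in FL and 55 in ΔCTR, a ratio of 0.797 (0.549 to 1.15). Genes entered this count through a member in any of the 3 lists, so FL did not choose them alone. The ratio of members was below 1 at every distance from the 5' end, from 0.722 at 51 to 100 nt through 0.673 and 0.559 to 0.837 beyond 400 nt. The last interval, 0.539 to 1.29, included 1.

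Base composition moved with this difference. Member windows of 31 nt held 67.3% G+C on average in FL, 66.9% in ΔNTR and 65.2% in ΔCTR. By G+C class of the window, the ΔCTR to FL ratio of members was 0.849 (0.558 to 1.29) below 50%, 0.797 (0.531 to 1.19) at 50 to 60%, 0.705 (0.501 to 0.986) at 60 to 70% and 0.557 (0.438 to 0.706) at 70% or more. CDS peaks of the same classes gave 1.25, 1.11, 0.961 and 0.986, and 3'UTR peaks 1.25, 1.07, 1.04 and 0.991. In these 3 regions the ratio was lower at 70% or more than below 50%, and in each class that of the members was the lowest of the 3. Peaks within 50 nt of the 5' end gave 1.31, 0.895, 0.647 and 0.655. At 60 to 70% these were thus below the members. At 70% or more their interval, 0.457 to 0.931, overlapped that of the members. At 70% or more the member interval lay below those of the CDS (0.851 to 1.14) and 3'UTR (0.818 to 1.20). The part of G+C content in the lower member number was not tested beyond these classes.

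**Figure D3:**
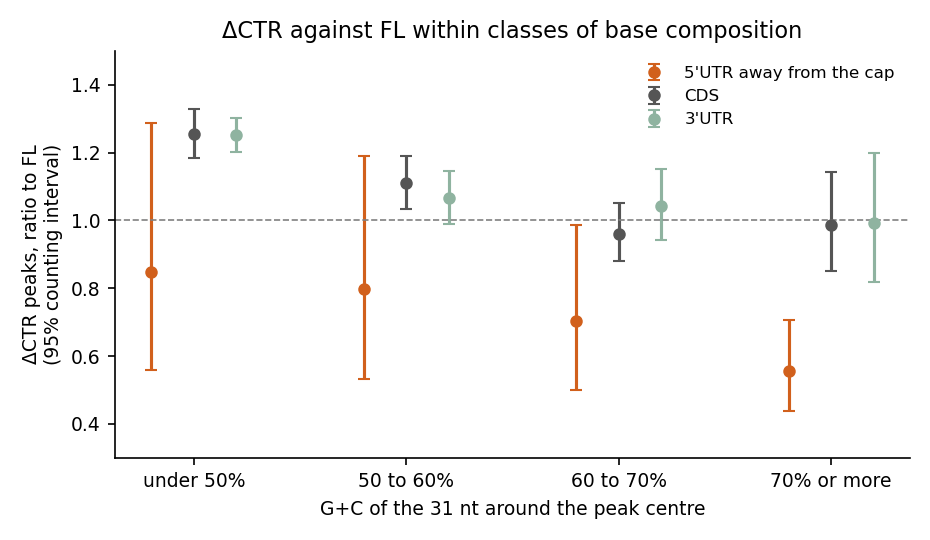
ΔCTR peaks divided by FL peaks in 4 classes of G+C content of the 31 nt around the peak centre, for 5'UTR peaks away from the cap, CDS and 3'UTR, with 95% counting intervals. The 5'UTR points descend from 0.849 to 0.557 and are the lowest of the regions shown in every class. Peaks within 50 nt of the 5' end are not shown.

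The lists shared their strong members and few of the weak ones. A ΔNTR peak overlapped 125 of 401 FL members, 31.2% (26.8 to 35.9), against 35.3% of all FL peaks. A ΔCTR peak overlapped 93, 23.2% (19.3 to 27.6), against 37.9% of all FL peaks. The ΔNTR share was thus near that of all peaks and the ΔCTR share was below it. Such a share also depends on the number of members in the other list, which was lower in ΔCTR. Counted the other way, an FL peak overlapped 33.5% (28.1 to 39.3) of the 266 ΔCTR members, against 34.4% of all ΔCTR peaks. For ΔNTR members it was 26.1% (22.3 to 30.3), against 30.1%. Among the 43 FL members of score 10 or more, ΔNTR overlapped 39, 90.7% (78.4 to 96.3), and ΔCTR 35, 81.4% (67.4 to 90.3), beside 88.2% and 93.2% of all FL peaks of that score. Of FL members at the lowest score of 3, ΔNTR overlapped 16.2% and ΔCTR 11.5%, beside 17.0% and 18.1% of all such peaks.

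Of the 896 sites, 59 had a peak in all 3 lists, 6.58% against 9.64% of all sites of the lists, and these had a median summed score of 29. They held 1376 of the FL score, 827 in ΔNTR and 988 in ΔCTR. Sites of 1 list alone numbered 260 (29.0%) for FL, 325 (36.3%) for ΔNTR and 151 (16.9%) for ΔCTR, against 21.8%, 29.9% and 25.3% of all sites, each with a median score of 3.

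Where 1 FL peak met 1 ΔNTR peak, the ΔNTR peak was the wider at 46 of 105 members, 43.8%, against 45.6% over all such pairs. For ΔCTR it was 37 of 82, 45.1%, against 48.3%. Mean widths at these members were 28.2 nt in FL and 29.2 nt in ΔNTR. The differences of the pairs had a mean of 1.07 nt, a median of 0 nt and an SD of 12.7 nt. This SD is the spread between pairs, not the error of the mean.

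Changes of single sites were read from the score share, the site score plus 1 divided by the list total, as a log2 ratio to FL, for sites with a score of at least 10 over both lists. In ΔCTR 30 of 71 member sites, 42.3% (31.4 to 53.9), were at least 2-fold lower, against 18.3% of all sites, and 9, 12.7% (6.81 to 22.4), at least 2-fold higher, against 18.0%. The median change was -0.62 for members and 0.01 for all sites. Sites within 50 nt of the 5' end resembled the members. Of these, 20 of 43, 46.5% (32.5 to 61.1), were lower in ΔCTR and 3 higher, with a median of -0.79. In ΔNTR 21 of 73, 28.8% (19.7 to 40), were lower, against 25.5%, and 12, 16.4% (9.66 to 26.6), higher, against 15.9%. Here the medians were -0.32 for members and -0.27 for all sites, so that members moved with the rest of the list. Centred on the median of all sites, the ΔNTR split became 14 lower and 17 higher, against 633 and 747 of 3484 sites.

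**Figure D4:**
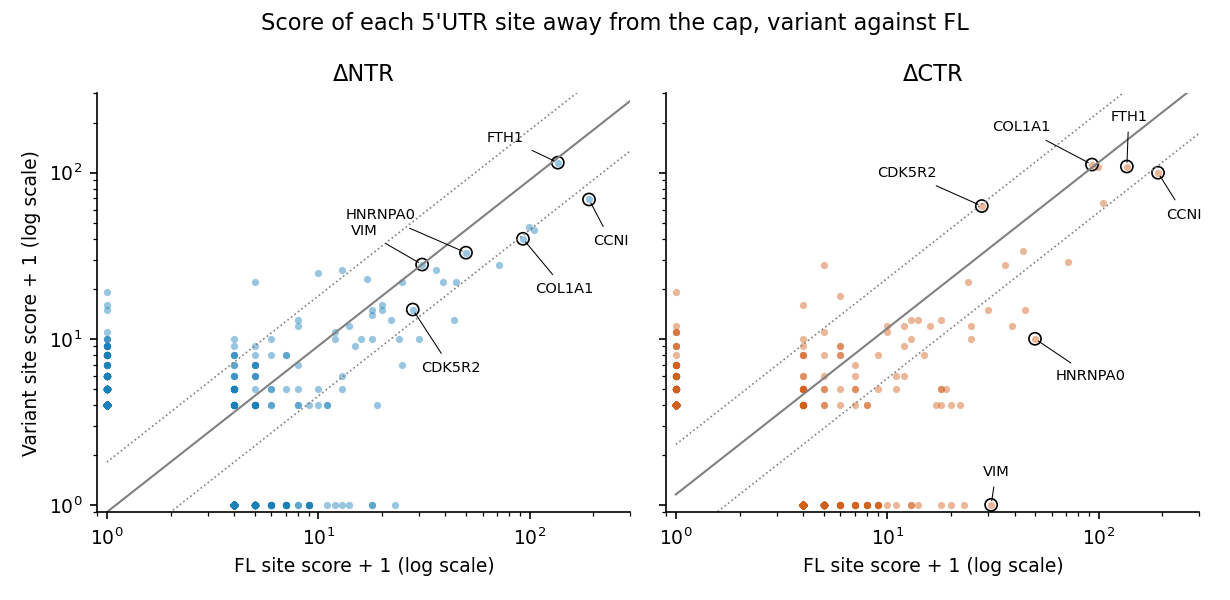
Score plus 1 of every 5'UTR site away from the cap in FL (x) and in ΔNTR or ΔCTR (y), both on log scales; the solid line marks an equal share of the list total and the dotted lines a 2-fold change. ΔCTR points fall below the lower dotted line more often (30 of the 71 sites of score 10 or more) than above the upper one (9), and HNRNPA0 and VIM are ringed among the lower ones.

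Among sites with a score of at least 20 over FL and ΔCTR, the largest falls were at VIM, S100A6, STAM2, HNRNPA0 and ENO1. STAM2, a sorting protein of endosomes, scored 21, 12 and 3 at this site, a change in ΔCTR of -2.67 on the log2 scale. HNRNPA0 fell by 2.53 on the log2 scale. ENO1, the glycolytic enzyme enolase, scored 19, 14 and 3, and a ΔCTR peak of 6 of another transcript region touched its site. The S100A6 site, 2 nt before the start codon of a calcium-binding protein, scored 22 in FL and 0 in both deletions, but peaks of 24 in ΔNTR and 15 in ΔCTR overlapped it with centres outside the region. At S100A6 the value of 0 therefore reflects where the peak centre lay, not an absence of peaks.

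Rises in ΔCTR were found at PABPC1 and CDK5R2, among other sites. The PABPC1 site, 41 nt before the start codon of the cytoplasmic poly(A)-binding protein, scored 4, 0 and 27, a log2 change of 2.28. CDK5R2 changed by 0.96. Lower in this order, COL1A1 at 0.06 and EIF4G2 at 0.05 were level with FL.

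In ΔNTR the lowest sites were S100A6, FN1, STAM2, COL1A1 and PITPNM2. The FN1 site, 34 nt before the start codon of fibronectin, scored 18, 3 and 4, with a ΔNTR peak of 5 of another region touching it. The STAM2 site printed above scored 24, 6 and 9. The weaker COL1A1 site changed by -1.61. PITPNM2, a phosphatidylinositol transfer protein, scored 29, 9 and 14. All of these except S100A6 kept a ΔNTR peak centred in the region. At S100A6 the overlapping ΔNTR peak of 24 was centred outside it.

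The highest sites in ΔNTR were RPLP1, EIF4G2, TUBA1B, DCBLD2 and ACTG1. EIF4G2, a relative of the initiation factor eIF4G, scored 9, 24 and 11, a change of 1.47 on the log2 scale, at the pyrimidine-rich run printed above. TUBA1B, an alpha-tubulin, scored 12, 25 and 9, a change of 1.15. DCBLD2, a transmembrane receptor, scored 16, 22 and 3, and ACTG1, the cytoplasmic gamma-actin, 11, 10 and 8, level with FL at a change of 0.02. The RPLP1 site, in the mRNA of a ribosomal stalk protein, scored 4, 21 and 0, but an FL score of 45 and a ΔCTR score of 4 of peaks centred nearer the cap overlapped it.

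LARP6 itself held 1 site, 54 nt from the 5' end of its 69 nt leader, with 17 in FL and 4 in ΔCTR. The ΔNTR peak that overlapped it scored 12 and was centred within 50 nt of the 5' end. It lay in the only LARP family mRNA of 7 that held a member.

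Members were spread along the leader and were less dense far from either end. In the order FL, ΔNTR, ΔCTR, median distances from the 5' end were 159 nt (147 to 186), 163 (146 to 184) and 160 (134 to 183), and the intervals overlapped. Median distances to the start codon were 104 nt (89 to 120), 95 (80 to 108) and 84 (72 to 100). Per Mb of 5'UTR sequence of expressed genes (1 CPM or more in FL), FL had 286 members (219 to 366) in the last 25 nt before the start codon and 135 (94.6 to 187) beyond 400 nt. Counted from the 5' end, FL had 283 (234 to 340) at 51 to 100 nt and 149 (110 to 197) beyond 400 nt. Before the start codon, the corresponding values were 299 and 176 in ΔNTR and 184 and 52.5 (28.7 to 88.1) in ΔCTR, whose densest class, like that of ΔNTR, was 26 to 50 nt (238 in ΔCTR, 397 in ΔNTR). Relative to FL, ΔCTR members numbered 0.849 (0.558 to 1.29) at 26 to 50 nt from the start codon and 0.389 (0.194 to 0.739) beyond 400 nt, with overlapping intervals.

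**Figure D5:**
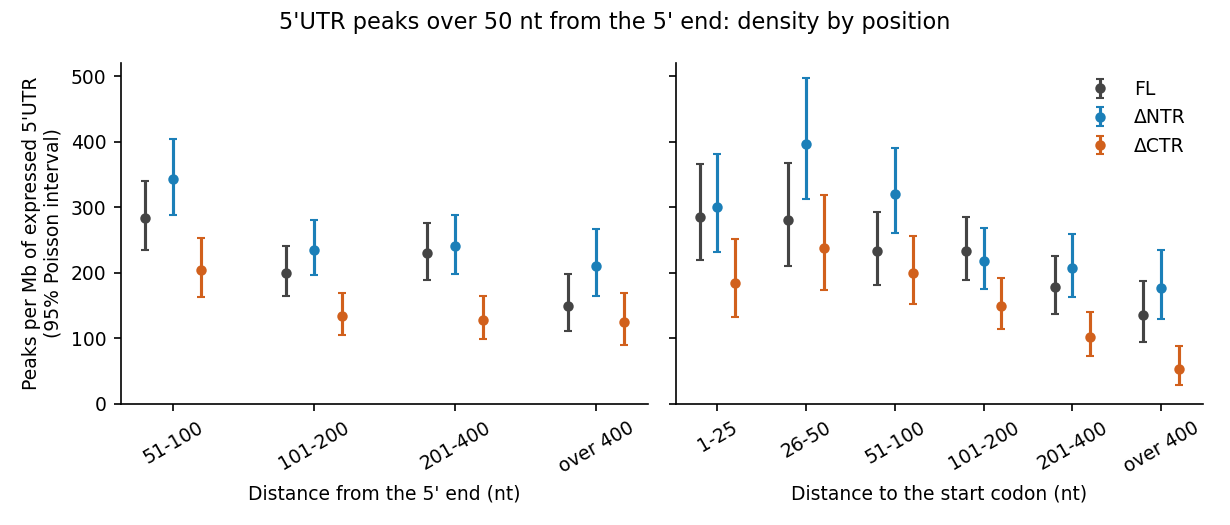
Members per Mb of 5'UTR sequence of expressed genes, by distance from the 5' end (left) and to the start codon (right), in nt, with 95% Poisson intervals. FL density falls from 286 in the last 25 nt before the start codon to 135 beyond 400 nt, and ΔCTR lies below FL in every class.

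Most members lay in the first exon, 83.8% (FL), 79.7% (ΔNTR) and 78.9% (ΔCTR), where 78.2% of the eligible sequence of these leaders lay. Centres within 15 nt of an exon junction made up 5.74%, 6.64% and 8.65%. Over the whole region, expressed genes had 218 FL members (197 to 241) per Mb, compared with 374 (324 to 430) within 50 nt of the 5' end, 231 (224 to 237) in the CDS and 279 (273 to 286) in the 3'UTR. FL members were thus about as dense as CDS peaks and less dense than peaks near the cap. In ΔCTR the members were the least dense class, at 147 (130 to 166), against 262 (255 to 269) in the CDS.

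Compared with all other 31 nt windows of their own leaders, member windows held slightly more T. The T excess was 1.30 percentage points (0.405 to 2.20) for FL, 2.31 (1.49 to 3.14) for ΔNTR and 1.46 (0.386 to 2.54) for ΔCTR, and the excess of C and T together 1.97 (0.688 to 3.26), 2.59 (1.45 to 3.72) and 1.43 (0.0284 to 2.82). These intervals are over peaks, several of which can share a leader. Runs of at least 8 C or T occurred in 16% of FL windows, 16.9% of ΔNTR windows and 15.4% of ΔCTR windows. All windows of the same leaders gave 15.7%, 14.1% and 16.1%, each inside the interval of its list. In 61 nt windows the ΔNTR share was 29.8% (25.8 to 34.1), above the 25.4% of the same leaders. The leader shares of FL (28.2%) and ΔCTR (28.6%) lay inside their intervals there. Windows of EIF4G2, HNRNPA0, TUBA1B and VIM were 93.5%, 77.4%, 77.4% and 74.2% C and T. Of these, only the printed stretch of EIF4G2 holds a run of at least 8 C or T.

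Short motifs were searched on the mRNA strand only, overlapping matches included. ATG occurred in 15.2% of FL windows (12 to 19.1), 19.5% of ΔNTR windows and 19.2% of ΔCTR windows, against 17.8%, 18.5% and 19.6% of all windows of the same leaders. CTCTC occurred in 8.48% of FL windows (6.13 to 11.6) against 5.81%, in 6.85% of ΔNTR windows (4.90 to 9.51) against 6.07% and in 7.52% of ΔCTR windows (4.92 to 11.3) against 5.90%. The G+C-rich motif CGNCG occurred in 24.4% (20.5 to 28.9) of FL windows against 28.1%, and in 25.1% (21.3 to 29.2) of ΔNTR windows against 29.7%. GGCGG occurred in 9.21% (6.91 to 12.2) of ΔNTR windows against 13.2%, and CCGCC in 13.3% (10.5 to 16.7) against 18.2%. Of the 10 short motifs searched, the share in the same leaders lay outside the interval only for CTCTC in FL, where members were higher, and for the last 3 motifs in ΔNTR, where members were lower. In 61 nt windows CTCTC in FL kept this place, at 14.5% (11.4 to 18.2) against 11.2%, and so did CCGCC in ΔNTR, at 26.6% (22.8 to 30.7) against 31.2%, whereas the leader shares of CGNCG and GGCGG in ΔNTR fell inside their intervals. A pattern of 4 runs of G that can form a quadruplex was found in 0 FL, 1 ΔNTR and 0 ΔCTR windows.

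Upstream reading frames covered fewer FL members than the rest of the leader, at the edge of the counting interval, and in the deletions the leader share lay inside the interval. In FL 53 of 401 centres, 13.2% (10.3 to 16.9), lay in a frame opened by an upstream ATG, against 16.9% of the positions of the same leaders. The values were 18.6% (15.4 to 22.4) against 16.1% in ΔNTR and 17.7% (13.6 to 22.7) against 15.0% in ΔCTR. At least 1 upstream ATG was present in 55.3% of FL host leaders. Predicted folding of 61 nt windows averaged -19.2 kcal/mol at FL members and -19.0 over their own leaders, a difference of -0.20 (-0.83 to 0.44). The differences were 0.08 (-0.49 to 0.64) in ΔNTR and -0.18 (-0.87 to 0.51) in ΔCTR. In longer windows, the second width tried, the differences were -0.05 in FL, -0.27 in ΔNTR and 0.04 in ΔCTR, each with an interval that included 0. Among members of score 4 or more the difference in the longer windows of ΔNTR was -1.50 (-2.67 to -0.33), on the more stable side, while the intervals of FL and ΔCTR and all those of 61 nt windows included 0.

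Host mRNAs were abundant and had long leaders. The median FL host had 149 CPM, against 83.3 for genes with any FL peak, and a leader of 291 nt, against 175 nt for expressed genes that could hold a member. Of 9197 such genes, 3.15% held an FL member, 3.78% a ΔNTR member and 2.34% a ΔCTR member. The FL share rose from 0.241% of genes of 1 to 10 CPM through 2.06% and 8.0% to 47.5% (35.3 to 60.0) of the 59 genes of 1000 CPM or more. In ΔNTR these last genes held members in 33.9% (23.1 to 46.6) and in ΔCTR in 27.1% (17.4 to 39.6), and the intervals of the lists overlapped. Some hosts, 25.2% (FL), 19.7% (ΔNTR) and 18.8% (ΔCTR), had no peak outside the member region in the same list. CAMK2N1, DCBLD2, PABPC1 and CCNI held the most members, up to 9 FL members in CAMK2N1, followed by FN1 (4, 3 and 2) and VEGFA (3, 5 and 1) with equal totals.

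The input changed little in these mRNAs. Against parental cells, 0 of 620 host genes with an input value were at least 2-fold higher or lower in FL, beside 0.0624% of all expressed genes higher and 0.0% lower, and 0 in ΔCTR, beside 0.0624% and 0.0%. In ΔNTR 10 of 620 hosts were higher, a larger share than the 83 of 11223 expressed genes (0.74%), and 0 were lower, beside 0.0446%. The largest change was at SLC2A1, the glucose transporter GLUT1, from 77.0 CPM to 260.0 in ΔNTR. It was followed by BNIP3, a mitochondrial protein of the hypoxia response, from 157 to 499, and LOX, which crosslinks collagen, from 197 to 538. These genes were also above parental cells in the other lines, by less than 2-fold. SLC2A1 had 129 CPM in FL and 133 in ΔCTR, BNIP3 259 and 289, and LOX 304 and 336. Member scores of the 10 genes were low, at most 10 in any list. Each of these comparisons rests on 1 library per line.

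By gene group, the backgrounds were the same 3.15%, 3.78% and 2.34%. They cover expressed genes of all levels and were not matched to the groups, although the share with a member rose with level. The collagens had members in 4 (FL), 3 (ΔNTR) and 2 (ΔCTR) of 13 genes, with summed scores of 282, 125 and 282. Nearly all of this came from COL1A1 and COL1A2, and COL5A1 and COL6A3 had scores of 3 and 6 in FL. Matrix proteins and receptors had members in 6, 3 and 3 of 21 genes with scores of 80, 40 and 23, led by FN1, whose member score went from 35 in FL to 16 and 8. LAMC1, a laminin chain, scored 16, 0 and 12, TNC, tenascin C, 12, 0 and 0, and ITGA3, an integrin chain, 10, 21 and 0.

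Translation factors had members in 5, 5 and 6 of 20 genes with scores of 61, 57 and 65. PABPC1 scored 33, 12 and 34 over all its members, EIF4G2 15, 24 and 14, and EIF3B 6, 7 and 3. Genes of the cytoskeleton had 9, 8 and 7 of 38 with scores of 80, 82 and 35, and hnRNP and SR proteins 5, 5 and 6 of 27 with scores of 70, 68 and 30. HNRNPA0 supplied 49, 36 and 9 of the last, and HNRNPU 3, 14 and 7. The mRNAs with an iron-responsive element had members in 1, 2 and 3 of 3 genes with scores of 135, 123 and 117.

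In the remaining groups the summed scores were at most 30 in any list. Ribosomal proteins, of which 32 of 79 were eligible to hold a member, had 2, 2 and 1 of them with scores of 10, 27 and 5. ER chaperones and collagen-modifying enzymes had 3, 1 and 1 of 17 with scores of 13, 4 and 3. The mRNAs known for regulatory upstream frames had 3, 4 and 5 of 19 with scores of 27, 17 and 30, led by ODC1, the first enzyme of polyamine synthesis, with 11, 4 and 16. Immediate-early and growth transcription factors had 0, 2 and 0 of 19 with a score of 6 in ΔNTR.

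The deletions that remove the RNA-binding module had few members. The ΔLa-module list held 14, 2.20% (1.32 to 3.66) of its 636 peaks, and the ΔNTD list 9, 3.09% (1.64 to 5.77) of its 291. As a share of the list these were within the counting error of the FL share of 2.80%, so members were few along with all other peaks. None scored above 4. Of the ΔLa-module members 7 overlapped an FL peak, among them DCBLD2, EIF4G2, CD44 and 2 in VIM, and of the ΔNTD members 3 did, in DCBLD2, LDHA and VIM.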

How the data were processed

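Per the study's methods, the authors trimmed iCLIP reads (Trim Galore), removed rRNA and tRNA reads (Bowtie2), aligned with STAR to GRCh38.p13, removed duplicates (UMI-tools), called peaks with Clippy per replicate, merged 3 replicates, summed the scores and subtracted parental peaks (bedtools 2.30.0). The deposited score is that sum, not scaled to depth, so a list of more reads can hold higher scores. For the input, the authors deposited STAR counts per gene. The submitters' processing notes name Trim Galore 0.6.10 and STAR 2.7.10b, which the methods give for the input libraries.

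Here, CPM were computed from the deposited counts with TMM factors (edgeR 4.0.16). Leaders came from GENCODE 44, whereas the authors used release 42 of the same build. The centre of 31 of the 1134 members lay in the coding sequence of another coding transcript. Peaks were merged into sites only within a transcript region, a choice made after seeing that merging across regions chained peaks near the cap to members. Folding used ViennaRNA 2.7.2. Intervals are Poisson for counts, Wilson for shares and exact binomial for ratios. Input libraries carry no stated molecular identifiers, and no test was run because each list is pooled and each input value is 1 library. Scripts were tested on simulated data. Named sites were the 15 of highest summed score, the 5 highest and 5 lowest changes of ΔNTR and of ΔCTR at a score of at least 20, COL1A1, COL1A2 and LARP6, up to 4 genes of each gene group and the 5 genes with most members. Members and lists were chosen with earlier results of these data known. Sequences on chromosome 8 are not printed. A site that the naming rule picked is not reported here.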

Additional observations from a re-analysis of the deposited data

How the results depend on the processing

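No paired analysis was possible because each list is already a sum over its replicates and the input has 1 library per line and protocol, and no replicate could be left out for the same reason. Of 94 alternative values for 34 results, 71 stayed within 1.5 times the reported count or inside the reported interval, 23 moved and 0 reversed. With scores above 3 only, members numbered 167 (FL), 207 (ΔNTR) and 112 (ΔCTR), and the ratios to FL stayed inside their reported intervals, as they did with distance limits of 25 and 100 nt. The share of FL members overlapped became 21.4% for ΔNTR and 17.5% for ΔCTR at an overlap of 50% of both peaks, and 41.9% and 32.9% with scores above 3. Without scaling to the list total, the member score relative to FL was 0.906 in ΔNTR and 0.671 in ΔCTR. It was 1.06 and 0.545 without COL1A1 and COL1A2, and 0.939 in ΔNTR after division by the input level. At a summed score of at least 20, member sites called lower and higher were 10 and 3 in ΔNTR and 17 and 2 in ΔCTR, since fewer sites were left, and at a pseudocount of 5 the ΔNTR sites called higher were 6. Merging peaks across transcript regions, an alternative chosen after seeing the data, gave 34 of 80 sites lower in ΔCTR and 18 of 89 in ΔNTR, and merging at 50% of the shorter peak 37 of 80 and 18 of 83. In ΔCTR these were 42.5% and 46.2% against 18.0% and 18.2% of all sites, and in ΔNTR 20.2% and 21.7% against 25% and 26.3%, so the ΔNTR share went from above that of all sites to below it. With scores above 3 the FL median from the 5' end was 135 nt and the ΔNTR median to the start codon 79 nt; the cause was not tested. The SE50 libraries, shallower and labelled small RNA, gave other numbers of hosts at least 2-fold changed in the input. They were 11 for FL (3 higher, 8 lower), 14 for ΔNTR (6 and 8) and 6 for ΔCTR (4 and 2). Of all 11223 genes, 70 and 56, 59 and 77, and 65 and 70 changed. In parental cells SLC2A1 had 0.618 CPM in SE50 against 77.0 in PE150, so SE50 may measure mRNA poorly. At a CPM pseudocount of 0.1, PE150 gave 1 changed host for FL and 1 for ΔCTR. The iCLIP depth is unknown here, and members at the lowest score of 3 limit what overlap can show.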

Other observations

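The 6 hosts below 1 CPM in FL other than CDK5R2 were DSC2, DTX4, KCNK2, RELN, SLC8A3 and ZNF804B, chosen after their values were seen. RELN, the secreted glycoprotein reelin, had members of 5 in FL, 4 in ΔNTR and 8 in ΔCTR at an input of 0.0356 to 0.111 CPM in these lines, and SLC8A3, a sodium-calcium exchanger, a member of 4 in FL at 0 CPM in each. The other 4 had a single member of 3 or 4 in 1 list.

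Of deletion members without an overlapping FL peak, those at most 100 nt away from one made up 21.2% (17.2 to 25.8) of 345 in ΔNTR and 20.3% (15.1 to 26.9) of 177 in ΔCTR, beside 23.5% and 21.5% over all such peaks of these lists.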
